A study of Homo sapiens with 12 samples.

Results

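The liver secretes most of the proteins of blood plasma, and 38 of their genes are described here in HCCLM3 and LX2 cells grown alone or together. They were chosen by gene symbol, as the rows of the deposited tables named for a listed liver plasma protein. All 38 had a row in the table of HCCLM3, which held 60612 genes, and 25 had a row in the table of LX2, which held 32507. By role they comprised 9 carriers and binding proteins, 6 apolipoproteins, 8 genes of clotting and fibrinolysis, 9 protease inhibitors and 6 acute phase proteins.

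HCCLM3 is a human hepatocellular carcinoma line, labelled as hepatoma cells, and LX2 is an immortalised human line of hepatic stellate cells, the matrix-forming cells beside the liver sinusoids. Both lines were labelled wild type and held in a tumor-on-a-chip device, with no drug, dose or time in the labels. The 4 groups were HCCLM3 alone, HCCLM3 with LX2, LX2 alone and LX2 with HCCLM3, with 3 libraries of polyadenylated RNA each. Nothing in the labels says that the 3 libraries of a group are separate cultures, so the p-values speak of library spread that may be only technical. The sources used here do not state how the cells of the lines were separated for RNA extraction.

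Hepatocytes make plasma proteins for export. Albumin keeps water in the vessels and carries fatty acids and hormones, apolipoproteins package lipid, the clotting factors circulate as inactive precursors, and the protease inhibitors limit enzymes set free in blood and tissue. Many of these genes are switched on as the hepatocyte matures, through factors such as HNF1, HNF4 and C/EBP. The acute phase genes also answer to interleukin-6, which acts through STAT3, and to NF-kB in inflammation. Liver cancer lines keep this programme to very different degrees.

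ALB and AFP lie side by side on chromosome 4, and they are shown first because co-culture separated them, as given with their values. AFP, the fetal serum albumin-like protein used as a marker of liver cancer, was added after its values were seen. The stretches are from RefSeq (GRCh38.p14, plus strand). Each starts 250 bases before the RefSeq start and ends before the next exon of that gene in GENCODE 29, which also has transcripts of both genes that begin farther upstream. Capitals mark exact matches to the motif letters searched. The stretch of ALB is chr4:73404037-73404238 and that of AFP is chr4:73435971-73436162.
ALB: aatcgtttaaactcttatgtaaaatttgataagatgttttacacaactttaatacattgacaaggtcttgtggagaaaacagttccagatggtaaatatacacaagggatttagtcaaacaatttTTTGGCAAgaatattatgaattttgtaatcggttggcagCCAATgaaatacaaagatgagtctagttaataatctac
AFP: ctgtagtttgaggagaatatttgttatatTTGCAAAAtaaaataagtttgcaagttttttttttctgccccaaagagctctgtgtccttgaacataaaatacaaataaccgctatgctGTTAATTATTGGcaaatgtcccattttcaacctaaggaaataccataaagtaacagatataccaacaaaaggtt

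Both stretches held the C/EBP-type letters TTNNGCAA and the letters CCAAT, on either strand. The stretch of AFP also held the HNF1-type motif, an exact 10-letter form, which shares bases with a CCAAT match on the other strand. Promoter windows of 250 bases before the RefSeq start were matched for 26 of the 38 members. Of these, 6 held TTNNGCAA (AFP, AHSG, ALB, HPX, KNG1 and VTN), as did 9.05% of all 35116 windows. CCAAT stood in 12 of 26 against 32.0% of all windows, and the STAT-type letters TTCNNNGAA in 5 of 26 against 6.57%. TATAAA stood in 3 of 26 against 10.7%, and an exact NF-kB-type motif in 3 of 26 against 5.07%. The HNF1-type motif stood in 1 of 26 against 0.296%, and the HNF4-type letters CAAAGTCCA in 1 of 26, AHSG, against 0.325%. A match describes the letters of the window and shows no binding.

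Library totals ran from 65675929 to 77712308 counts in HCCLM3 and from 61836616 to 69891842 in LX2. Counts were compared with edgeR's quasi-likelihood test in each line, with p-values adjusted over all genes tested, and a gene is said to rise or fall at an adjusted p under 0.05. In HCCLM3, 1829 of 18045 genes rose with LX2 and 2095 fell (21.7% called, 10.1% higher and 11.6% lower). With library totals in place of TMM factors the median log2 change of all genes moved from 0.03 to 0.21, and 2977 genes rose and 1039 fell. Levels are given in FPKM, fragments scaled by gene length and library total but not by TMM, so a fitted fold change can be smaller than the ratio of FPKM values. The tables of the lines were made separately, and levels set across lines are a description.

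Plasma protein genes were sparse in HCCLM3 grown alone. Of the 38, 12 had no count in any of the 3 libraries, 23 had a mean under 0.1 FPKM and 6 reached 1 FPKM: ITIH2, APOH, CP, AMBP, F5 and F2. With LX2, 8 had no count, 17 were under 0.1 FPKM and 11 reached 1 FPKM, the others being ALB, ORM1, ORM2, APOE and VTN. APOC3, CRP, F9, ITIH1, PLG and SERPINC1 had no count in any HCCLM3 library, and for 3 libraries pooled a count of 0 allows up to 3 counts. Summed over the members, the level was 67.1 ± 4.16 FPKM alone and 117.9 ± 3.87 FPKM with LX2 (SD, n = 3). ITIH2 alone gave 46.7% of that sum in HCCLM3 alone and 37.8% with LX2.

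In co-cultured HCCLM3, 9 members rose and none fell: CP, ALB, TF, VTN, APOE, F5, ITIH2, ORM1 and SAA1. The test covered 23 of the 38, since 15 had too few counts. At an unadjusted p under 0.05, 11 of the 23 lay higher and 2 lower (AHSG and AMBP), a threshold at which all genes were not counted. DESeq2 called 9 members higher and 1 lower (AMBP), and of 18022 genes 2446 higher and 2543 lower. Against 10.1% of all genes that rose, 39.1% of the tested members did, and their median log2 change was 0.95 against 0.03 for all genes tested. A member nearly silent in 1 group passed the count filter through the other, so these shares describe the members with enough counts and not the whole set. Without HCCLM3 with LX2 replicate 3 the number that rose was 4 (ALB, CP, F5 and TF), and without replicate 1 of that group it was 5 (the same 4 and VTN). Over all genes the calls were fewer there too, with 821 of 18783 and 987 of 18780 genes higher. In RNA pooled from many cells, a change in the number of cells of a type and a change in RNA per cell cannot be told apart.

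**Figure D1:**
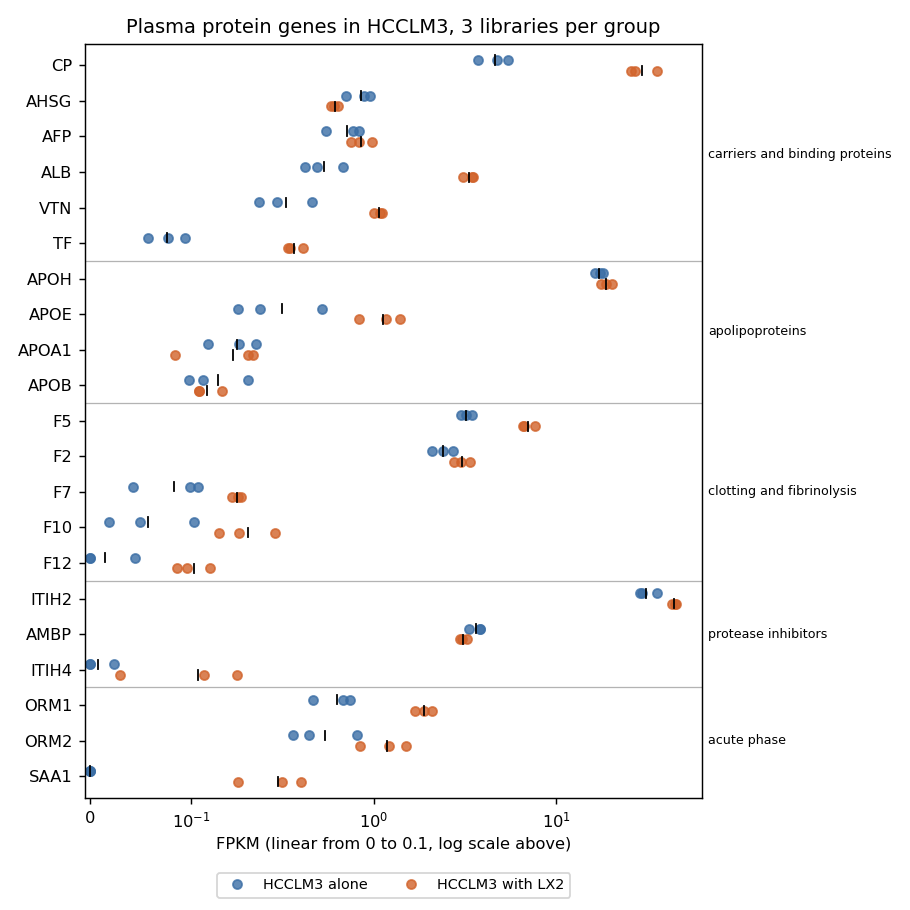
FPKM of the 21 plasma protein genes with a mean of at least 0.1 FPKM in either HCCLM3 group, by class, on an axis that is linear to 0.1 and logarithmic above. Each point is a library (blue, HCCLM3 alone, and orange, HCCLM3 with LX2, 3 each) and black ticks are means. The groups stand apart for ALB, CP, TF and VTN, and overlap for AFP and APOH.

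Among the carriers and binding proteins, 4 of 6 tested members rose, where 10.1% of all genes tested rose. CP encodes ceruloplasmin, the copper-carrying ferroxidase of plasma (ENSG00000047457, chromosome 3, 149162410 to 149221827). Its level was 3.74, 5.48 and 4.73 FPKM in HCCLM3 alone and 25.8, 35.6 and 27.1 FPKM with LX2. Every co-cultured library stood above every library grown alone. Counts went from 2461, 3505 and 2712 to 14335, 20538 and 15241, and the gene rose 5.64-fold (log2 fold change 2.50, SE 0.17; edgeR adjusted p = 0.000581). CP overlaps HPS3 on the opposite strand over 19.4% of its exon bases, and the sources used here do not state whether counting used strand. HPS3 stood at 7.99 and 8.29 FPKM in the same groups (log2 fold change -0.11, edgeR adjusted p = 0.554).

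ALB, the gene of serum albumin (ENSG00000163631, chromosome 4, 73397114 to 73421410), gave 221, 156 and 118 counts alone and 833, 968 and 962 with LX2. On the FPKM scale this was 0.68, 0.492 and 0.42 against 3.07, 3.45 and 3.5. The groups did not overlap, and the rise was 5.51-fold (log2 fold change 2.46, SE 0.22; edgeR adjusted p = 0.00112). The co-cultured mean of 3.34 FPKM placed ALB in the top 28.4% of genes with any FPKM there. AFP, 9728 bases downstream of ALB in the deposited coordinates, stood at 0.832, 0.775 and 0.549 FPKM alone and 0.981, 0.755 and 0.831 FPKM with LX2. Its groups overlapped (log2 fold change 0.08, SE 0.23, edgeR adjusted p = 0.832). An approximate 95% interval of the log2 change, taken from the SE, ran from -0.37 to 0.54. That span lies below the 2.03 to 2.89 of ALB by the same approximation, though the difference between the genes was not itself tested.

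TF encodes transferrin, the iron carrier of plasma (ENSG00000091513, chromosome 3, 133746040 to 133778784). It gave 188, 136 and 201 counts alone and 718, 728 and 856 with LX2, with no overlap, and rose 4.27-fold (log2 fold change 2.09, SE 0.22; edgeR adjusted p = 0.0017). Per length its level was low, 0.076 ± 0.0186 FPKM alone and 0.366 ± 0.0388 FPKM with LX2, and its annotated exons cover 26199 bases, the most of any member. VTN encodes vitronectin, an adhesive glycoprotein that also binds clotting and complement factors (ENSG00000109072, chromosome 17, 28367284 to 28370307). It stood at 0.297, 0.459 and 0.236 FPKM alone and 1, 1.08 and 1.12 FPKM with LX2, 2.85-fold higher (log2 fold change 1.51, SE 0.29; edgeR adjusted p = 0.0143). The co-cultured libraries of VTN lay close together and above all 3 libraries grown alone. CP, ALB and TF kept their call in each of 13 alternative analyses, and VTN lost it without HCCLM3 with LX2 replicate 3 (adjusted p = 0.0539) and with all 12 libraries in 1 fit (adjusted p = 0.192, the highest of its 13).

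AHSG, which encodes fetuin-A, a mineral-binding plasma glycoprotein, lay the other way in every library. Its level was 0.958, 0.88 and 0.703 FPKM alone and 0.638, 0.605 and 0.587 FPKM with LX2, which missed the threshold (log2 fold change -0.63, SE 0.21; edgeR adjusted p = 0.0795). The haem carrier HPX had 0 counts alone and 6, 3 and 0 with LX2, and A1BG, an immunoglobulin-like plasma protein, 0 alone and 4, 0 and 4 with LX2. TTR, the carrier of thyroid hormone and retinol-binding protein, gave 0, 0 and 12 counts alone and 0 with LX2. None of the 3 had enough counts to be tested. The carriers' share of the summed member level was 10.7% ± 0.639 in HCCLM3 alone and 30.2% ± 3.54 with LX2 (SD, n = 3), which CP dominated.

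**Figure D2:**
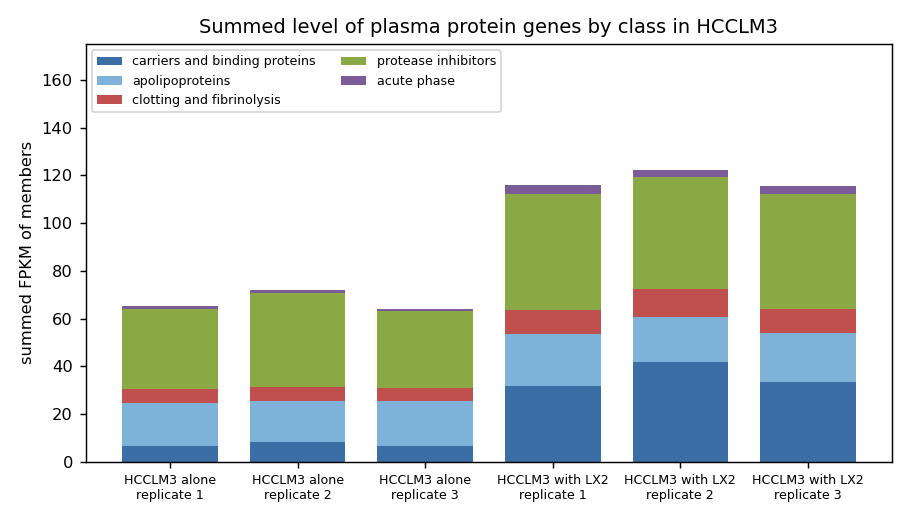
Summed FPKM of the plasma protein genes in each of the 6 HCCLM3 libraries, stacked by class in linear bars from 0. The sum averages 67.1 FPKM alone and 117.9 FPKM with LX2, and the segment of carriers and binding proteins goes from a mean of 7.17 to 35.7 FPKM.

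Among the apolipoproteins, APOE rose, and the most abundant, APOH, did not pass the test. APOE, a lipid carrier and receptor ligand made in liver and many other cells (ENSG00000130203, chromosome 19, 44905791 to 44909393), stood at 0.179, 0.521 and 0.237 FPKM alone and 0.831, 1.16 and 1.39 FPKM with LX2. The groups did not overlap (3.17-fold; log2 fold change 1.66, SE 0.43; edgeR adjusted p = 0.0341). The call was lost in 5 of 6 fits that left out a library (without HCCLM3 alone replicate 1 or 3, or any co-cultured library), and the adjusted p stayed at or under 0.106 in all alternatives. APOH encodes beta-2-glycoprotein I, a phospholipid-binding protein, and read 17.4, 16.4 and 18 FPKM alone and 20.3, 17.6 and 18.8 FPKM with LX2. These values overlapped (log2 fold change -0.04, SE 0.10, edgeR adjusted p = 0.83), and the log2 change turned to 0.14 with library totals in place of TMM factors.

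APOA1 and APOB, the structural proteins of high and low density lipoprotein, were under 0.3 FPKM in each HCCLM3 library. APOA1 gave 19, 23 and 11 counts alone and 19, 8 and 18 with LX2 (log2 fold change -0.24, SE 0.62; edgeR adjusted p = 0.822). APOB gave 135, 155 and 247 counts alone and 172, 133 and 131 with LX2 (log2 fold change -0.35, SE 0.32; edgeR adjusted p = 0.489). Both overlapped between groups. APOA2, another protein of high density lipoprotein, had 8 counts in HCCLM3 alone replicate 3 and 0 in the other 5 libraries, and APOC3, an inhibitor of lipoprotein lipase, had none.

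Of the clotting genes, F5 rose. It encodes factor V, the cofactor with which factor Xa cuts prothrombin (ENSG00000198734, chromosome 1, 169511951 to 169586481). The level was 3, 3.45 and 3.2 FPKM alone and 6.66, 7.7 and 6.57 FPKM with LX2, with a wide gap between groups. Counts went from 2609, 2921 and 2432 to 4911, 5880 and 4904, a 1.93-fold rise (log2 fold change 0.95, SE 0.091; edgeR adjusted p = 0.00133). F5 kept its call with any 1 library left out, and lost it when all 12 libraries of both lines shared 1 estimate of the spread (adjusted p = 0.104, with a range of 1.19e-14 to 0.104 over its 13 alternatives).

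F2, the gene of prothrombin, stood at 2.71, 2.41 and 2.09 FPKM alone and 3.02, 3.38 and 2.77 FPKM with LX2. Its FPKM groups did not overlap, but the fitted change was small (log2 fold change 0.18, SE 0.16; edgeR adjusted p = 0.476). Factors VII and X, vitamin K-dependent proteases whose genes lie 2114 bases apart on chromosome 13, had few reads. F7 gave 16, 34 and 35 counts alone and 51, 59 and 55 with LX2 (log2 fold change 0.91, SE 0.43; edgeR adjusted p = 0.183). F10 gave 11, 4 and 20 counts alone and 35, 56 and 27 with LX2 (log2 fold change 1.68, SE 0.70; edgeR adjusted p = 0.135). F12, whose protein starts the contact pathway, gave 12, 0 and 0 counts alone and 19, 22 and 29 with LX2. KNG1, the precursor of bradykinin, gave 8, 0 and 7 counts alone and 29, 17 and 22 with LX2. None of these 4 genes passed the test. Their co-cultured FPKM values lay above those alone, but FPKM is not scaled by TMM. How many of all genes stood apart in this way was not counted. F10 was called as higher with all 12 libraries in 1 fit (adjusted p = 0.0356) and by limma on log2(FPKM + 0.1), over a range of 0.0356 to 0.335. F12 was called in 4 of 13 alternatives, over a range of 0.0287 to 0.437. F9, the haemophilia B factor, and PLG, the plasmin precursor, had no count in either line.

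Protease inhibitors held the most abundant member, ITIH2, a heavy chain of the inter-alpha-trypsin inhibitors that are linked to hyaluronan in matrix (ENSG00000151655, chromosome 10, 7703316 to 7749520). It read 29.7, 35.6 and 28.7 FPKM in HCCLM3 alone and 45.3, 43.4 and 45 FPKM with LX2, and stood within the top 5.22% and 3.44% of genes with any FPKM. The groups did not overlap, and the rise was 1.27-fold (log2 fold change 0.34, SE 0.096; edgeR adjusted p = 0.0446). The call was lost in 8 of 13 alternatives, over which the adjusted p ranged from 0.0112 to 0.475: without any 1 library other than HCCLM3 alone replicate 2, with no filter, with the replicate block and, highest, with all 12 libraries in 1 fit. AMBP encodes the precursor of the light chain, bikunin, and of alpha-1-microglobulin. Its level was 3.81, 3.82 and 3.32 FPKM alone and 3.06, 2.98 and 3.25 FPKM with LX2, the co-cultured libraries all lower (log2 fold change -0.41, SE 0.13; edgeR adjusted p = 0.0731). DESeq2 called this fall (adjusted p = 0.0485, with a range of 0.0485 to 0.252 over 13 alternatives).

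The other heavy chains were near 0. ITIH1 had no count in HCCLM3, and ITIH3 had 4 in 1 co-cultured library. ITIH4 gave 11, 0 and 0 counts alone and 11, 69 and 46 with LX2 (edgeR adjusted p = 0.128), and 73.6% of its exon bases are shared on the same strand with the annotated gene AC006254.1, so its counts are uncertain. SERPINA1, the gene of alpha-1-antitrypsin and among the highest transcripts of normal liver, gave 15, 8 and 23 counts alone and 33, 12 and 16 with LX2 (log2 fold change 0.37, SE 0.70; edgeR adjusted p = 0.754). SERPINA3, the gene of alpha-1-antichymotrypsin, gave 0, 1 and 0 counts alone and 99, 1 and 16 with LX2, so 1 library held most of its reads. It was not tested with all libraries. SERPING1, the C1 inhibitor, gave 0, 0 and 8 counts alone and 0, 4 and 16 with LX2, and SERPINC1, antithrombin, none.

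Of the 6 acute phase members 3 were tested and 2 rose, ORM1 and SAA1, where 10.1% of all genes tested rose. SAA1 entered the test through the co-cultured group only, so the count describes single genes and not the class. ORM1 encodes alpha-1-acid glycoprotein, a drug- and lipid-binding acute phase protein (ENSG00000229314, chromosome 9, 114323056 to 114326475). It stood at 0.746, 0.681 and 0.465 FPKM alone and 1.89, 1.69 and 2.08 FPKM with LX2, without overlap (2.61-fold; log2 fold change 1.38, SE 0.28; edgeR adjusted p = 0.0165). The call was lost without HCCLM3 with LX2 replicate 1 or 3, with an adjusted p of at most 0.0647 in all alternatives. Its copy ORM2, 3394 bases away, stood at 0.81, 0.361 and 0.441 FPKM alone and 1.5, 1.21 and 0.841 FPKM with LX2 (log2 fold change 0.95, SE 0.44; edgeR adjusted p = 0.175). ORM1 shares 29.6% of its 100-base transcript windows with ORM2, so the split of reads between them is uncertain.

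SAA1, which encodes serum amyloid A, a lipoprotein-bound protein that climbs steeply in inflammation (ENSG00000173432, chromosome 11, 18266260 to 18269977), had no count in HCCLM3 alone and 23, 19 and 11 with LX2. Taking 3 counts over the group as the floor, it was at least 19.6-fold higher with LX2 (edgeR adjusted p = 0.0221). It passed the count filter through the co-cultured group only, and leaving out any 1 co-cultured library ended the call (adjusted p of at most 0.119 in all alternatives). SAA2, its near copy, had 0 counts alone and 0, 4 and 7 with LX2. HP, the haemoglobin-binding haptoglobin, had 0 alone and 0, 8 and 8 with LX2, and CRP had none. Of the 6 acute phase genes, CRP was therefore at 0 throughout and SAA2 and HP were under 0.1 FPKM in both groups.

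**Figure D3:**
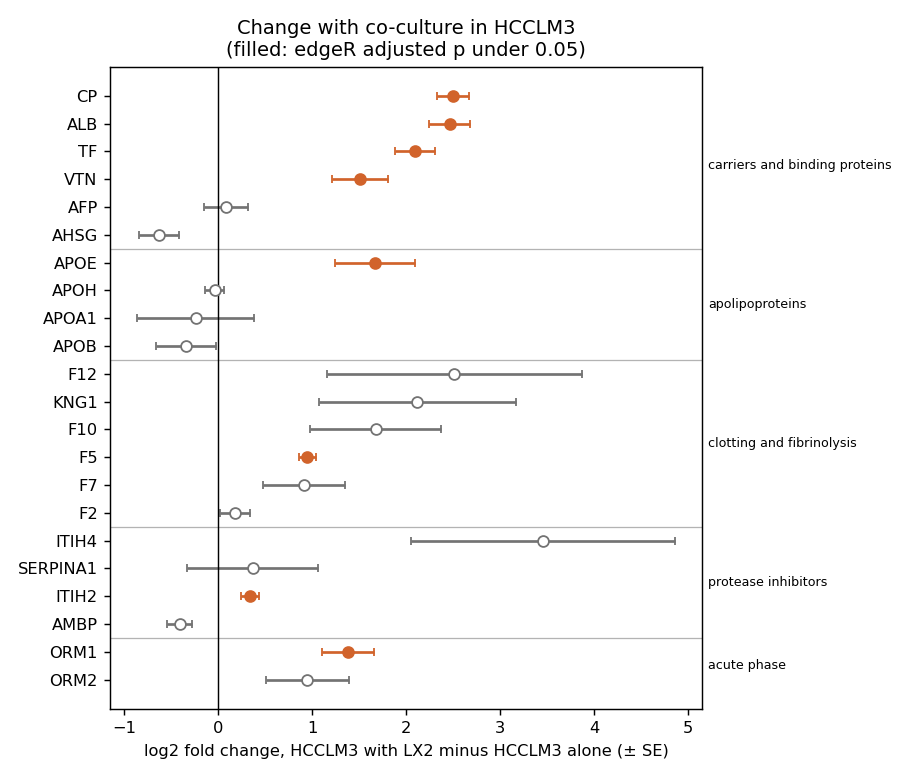
Log2 fold change of the 22 tested plasma protein genes with a count in HCCLM3 alone (HCCLM3 with LX2 minus HCCLM3 alone, bars ± SE), by class; filled points passed an edgeR adjusted p of 0.05. CP, ALB and TF lie between 2.09 and 2.50 with narrow bars, and the widest bars belong to ITIH4, F12 and KNG1, which had few counts.

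Other liver secretory genes included some that rose and many that did not pass the test. The 3 fibrinogen chains, which are made in hepatocytes and joined into the clot-forming protein, all rose in HCCLM3: FGG (log2 fold change 4.31, edgeR adjusted p = 0.000581), FGB (3.79, 6.67e-06) and FGA (1.92, 0.000149). Their summed level was 7.43 to 7.52 FPKM per library alone and 65.5 to 67.3 FPKM with LX2. Among 39 further liver secreted proteins, 18 were tested, 7 rose and 1 fell. FGL1, a fibrinogen-like hepatocyte protein, went from 12 ± 0.704 to 34.2 ± 1.51 FPKM (SD, n = 3; log2 fold change 1.35, edgeR adjusted p = 0.000515). SERPINF1, an anti-angiogenic serpin, went from 4.97 ± 0.3 to 15 ± 0.877 FPKM (log2 fold change 1.42, edgeR adjusted p = 0.000551). MTTP, which loads lipid onto apolipoprotein B, rose by 1.08 on the log2 scale (edgeR adjusted p = 0.00624), whereas APOB itself did not pass the test.

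The counts of the context lists stand beside the 21.7% of all tested genes that were called in HCCLM3, and nothing is read from a list whose share lies near that. Of 26 hepatocyte enzymes and transporters listed, 25 had an identifier and 10 were tested; ASS1 of the urea cycle rose (log2 fold change 3.36, edgeR adjusted p = 0.0173) and ABCB11, the bile salt pump, fell (log2 fold change -1.75, edgeR adjusted p = 0.0301). Their summed level was 10.6 to 11.1 FPKM per library alone and 11.96 to 13.8 FPKM with LX2, and ASGR2, PCK1, G6PC, CYP7A1 and SLCO1B1 were at 0 in both groups. Of 21 tested liver-enriched transcription factors 7 rose, including CEBPD (10.6 ± 0.518 to 32.9 ± 5.68 FPKM; edgeR adjusted p = 0.00122) and CEBPB (48.4 ± 3.84 to 82.9 ± 1.18 FPKM; edgeR adjusted p = 0.00453). DBP and PROX1 also rose (log2 fold changes 2.06 and 1.17). Of 17 tested genes of interleukin-6 and STAT3 signalling, 4 rose and 1 fell. SOCS3, the feedback inhibitor, went from 9.06 ± 0.244 to 21.6 ± 0.348 FPKM (log2 fold change 1.08, edgeR adjusted p = 0.000547). OSMR, a receptor of oncostatin M, and STAT3 rose by log2 fold changes of 0.98 and 0.41, and JAK2 fell by 0.80. Of 7 genes that process clotting factors, FURIN rose (log2 fold change 0.36, edgeR adjusted p = 0.0246) and PCSK5 fell (log2 fold change -0.38, edgeR adjusted p = 0.0444).

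Genes of blood cells moved with co-culture in the same libraries. All 11 tested erythroid markers of 14 rose in HCCLM3, with a summed level of 0 to 0.0471 FPKM per library alone and 81.7 to 114.1 FPKM with LX2. Of 14 tested granulocyte and monocyte markers of 17, 13 rose, from a sum of 0.797 to 1.20 FPKM to 17.3 to 24.7 FPKM. In HCCLM3 alone 11 of the 14 erythroid and 13 of the 17 granulocyte and monocyte markers had no count. Such a gene could pass the count filter only through the co-cultured group, so these counts of rises were nearly fixed by the filter. The 10 Kupffer cell and macrophage markers summed to 20.8 to 24.4 FPKM alone and 22.8 to 28.6 FPKM with LX2, nearly all of it CD68 (22.4 ± 1.83 and 26.3 ± 3.21 FPKM; edgeR adjusted p = 0.731), and 7 of them, including MARCO, VSIG4 and C1QA, were at 0 in both groups. The stellate cell and fibroblast markers summed to 13.4 to 15.7 FPKM alone and 13.1 to 19.8 FPKM with LX2. Gut-type epithelial markers, high in HCCLM3, summed to 691.9 to 706.9 FPKM alone and 437.3 to 446.02 FPKM with LX2, and of 9 tested 5 fell and 2 rose. The endothelial markers went from 33.2 to 42.4 FPKM to 16.1 to 17.6 FPKM, and of 4 tested 2 fell (ESAM and KDR). Of 2 tested plasma and B cell markers IGKC rose, from 0 to a mean of 7.23 ± 5.94 FPKM. The part of any of these changes in the rise of the plasma protein genes was not tested.

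Genes high in the partner line were taken as those with at least 20 FPKM in LX2 alone and under 0.1 FPKM in HCCLM3 alone. The 41 such genes rose in HCCLM3 with LX2 by a median of 0.143% of their level in LX2 alone, and by 0.942% at most. The rises of CP, ALB, TF, VTN, APOE, F5, ITIH2 and ORM1 in HCCLM3 were each larger than the level of that gene in LX2 alone, and ALB and ORM1 had no count there. The rise of SAA1, 0.297 FPKM, came to 45.7% of its level in LX2 alone, 0.65 ± 0.107 FPKM.

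LX2 cells expressed few plasma protein genes. Alone, 18 of 38 had no count, 34 were under 0.1 FPKM and F12 was the only member at 1 FPKM or more. With HCCLM3, 15 had no count and F12 and CP reached 1 FPKM. The 13 members with no row in the LX2 table, read as 0 counts, were AFP, AHSG, APOA2, APOC3, CRP, F9, HP, ITIH3, ORM1, ORM2, PLG, SERPINA3 and TTR. The summed member level was 3.92 ± 0.34 FPKM alone and 4.38 ± 0.136 FPKM with HCCLM3 (SD, n = 3). In LX2, 31.9% of 19671 tested genes were called with co-culture, 15.4% higher and 16.6% lower. Of the members 11 were tested, 3 rose (CP, F10 and ITIH2) and none fell, a share of 27.3%. At an unadjusted p under 0.05, 4 lay higher and 1 lower (SAA1), again without a count over all genes. DESeq2 called 4 members higher (CP, F10, HPX and ITIH2) and none lower, and of 19653 genes 3508 higher and 3627 lower. HPX and ITIH2 passed the count filter through the co-cultured group only.

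**Figure D4:**
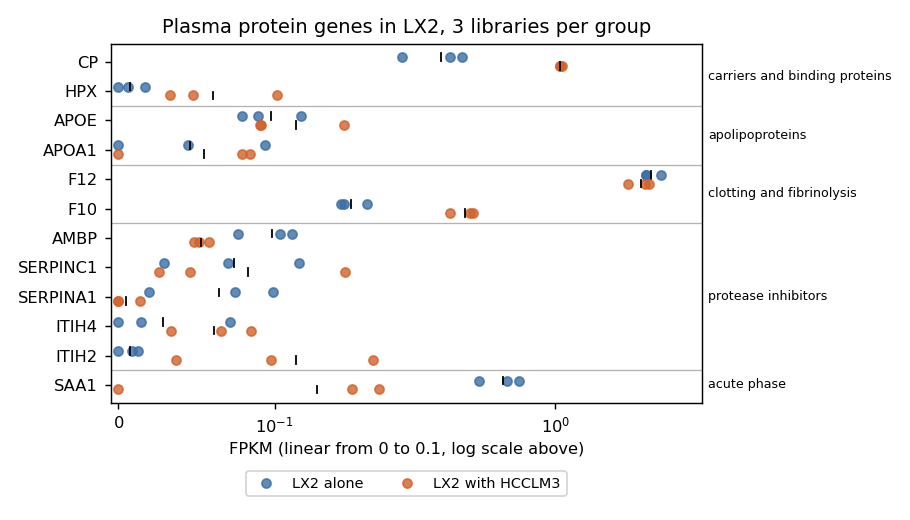
FPKM of the 12 plasma protein genes with a mean of at least 0.05 FPKM in either LX2 group, by class, on an axis that is linear to 0.1 and logarithmic above. Each point is a library (blue, LX2 alone, and orange, LX2 with HCCLM3, 3 each) and black ticks are means. CP and F10 stand higher with HCCLM3 without overlap, F12 overlaps, and SAA1 stands lower with 1 library at 0.

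CP in LX2 stood at 0.422, 0.464 and 0.285 FPKM alone and 1.04, 1.05 and 1.04 FPKM with HCCLM3. The co-cultured libraries were nearly equal and above all others, a 2.59-fold rise (log2 fold change 1.37, SE 0.18; edgeR adjusted p = 0.00213). It kept its call in each of 13 alternatives. HPS3, on the other strand, stood at 15.5 FPKM in LX2 alone and 15.8 FPKM with HCCLM3, above CP in both groups. Its log2 fold change in LX2 was -0.01 (edgeR adjusted p = 0.96), and how many of the CP counts are HPS3 reads was not tested. F10 (ENSG00000126218, chromosome 13, 113122799 to 113149529), the precursor of the protease that makes thrombin, gave 40, 31 and 32 counts alone and 92, 83 and 99 with HCCLM3. This was a 2.47-fold rise with no overlap (log2 fold change 1.31, SE 0.21; edgeR adjusted p = 0.0046), lost when all 12 libraries shared 1 estimate of the spread (adjusted p = 0.0941, with a range of 6.87e-05 to 0.0941 over its 13 alternatives). An antisense gene, AL137002.2, overlaps 4.16% of the exon bases of F10 and rose too (log2 fold change 1.43, edgeR adjusted p = 0.00214), and without strand their reads cannot be told apart there.

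ITIH2 gave 4, 3 and 0 counts in LX2 alone and 10, 62 and 28 with HCCLM3. It passed the count filter through the co-cultured group only. All co-cultured libraries were above those alone, and replicate 2 held most of the reads (12.5-fold; log2 fold change 3.65, SE 1.02; edgeR adjusted p = 0.0367). The call was lost in 9 of 13 alternatives, with an adjusted p of at most 0.129 in all alternatives. It was lost without any 1 of LX2 alone replicates 1 to 3 or of co-cultured replicates 2 and 3. No filter, the replicate block, and limma on log2(FPKM + 1) and on log2(FPKM + 0.1) also ended it. F12 was the leading member in LX2, at 2.38, 2.09 and 2.09 FPKM alone and 1.81, 2.09 and 2.14 FPKM with HCCLM3. These levels overlapped (log2 fold change -0.14, SE 0.11; edgeR adjusted p = 0.396), and F12 shares 14.4% of its exon bases with GRK6 on the other strand.

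SAA1 lay lower in LX2 with HCCLM3, with 42, 36 and 30 counts alone against 13, 0 and 12 with the partner line. No library overlapped, but the fit did not pass (log2 fold change -2.19, SE 0.91; edgeR adjusted p = 0.118), and limma on log2(FPKM + 1) and on log2(FPKM + 0.1) called the fall, as did edgeR without co-cultured replicate 2. SERPINA1 gave 8, 37 and 29 counts alone and 0, 6 and 0 with HCCLM3, and with all libraries it was left out of the test by the count filter. Without co-cultured replicate 2 it passed the filter through LX2 alone only, and edgeR called it lower. Scaled to library totals, the ratio of its pooled counts was 0.0769 (exact 95% interval 0.0273 to 0.176, which covers counting error only). HPX gave 0, 5 and 3 counts alone and 10, 15 and 32 with HCCLM3 (log2 fold change 2.65, SE 0.95, edgeR adjusted p = 0.0794). DESeq2 called this rise (adjusted p = 0.0365, with a range of 0.0365 to 0.251 over 13 alternatives). Like ITIH2, HPX passed the count filter through the co-cultured group only. AMBP gave 18, 15 and 12 counts alone and 8, 10 and 9 with HCCLM3 (log2 fold change -0.84, SE 0.42; edgeR adjusted p = 0.187). APOE, A1BG, ITIH4 and SERPINC1 overlapped between groups, with adjusted p-values of 0.5 to 0.942.

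Genes high in HCCLM3 and near 0 in LX2 alone were found at a low level in co-cultured LX2. Whether these reads came from HCCLM3 or from LX2 was not tested. Over 57 genes with at least 20 FPKM in HCCLM3 alone and under 0.1 FPKM in LX2 alone, the rise in LX2 had a median of 0.558% of the HCCLM3 level, a middle range of 0.330% to 0.809% and a maximum of 3.12%. ITIH2 rose in LX2 by 0.359% of its level in HCCLM3 alone, within that range. APOH, with 0 counts in LX2 alone and 10, 0 and 4 with HCCLM3, stood at 0.238%, and F2 and F5 at 0.684% and 0.470%. CP rose by 14.0% of its level in HCCLM3 alone, above the maximum. Taken against co-cultured HCCLM3, where CP was higher, this was 2.21%, below the maximum of 4.31% and above the third quartile of 0.875% on that scale. F10 rose by 502% of its HCCLM3 level alone and 141% of that in co-culture. Of 10 gut-type epithelial markers listed, 8 had no count in LX2 alone, and 6 were tested in LX2. All 6 rose, CEACAM6 from 0 to 3.36 ± 0.25 FPKM. A gene at 0 in LX2 alone could be tested only through the co-cultured group, so the count of rises was nearly fixed by the filter.

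**Figure D5:**
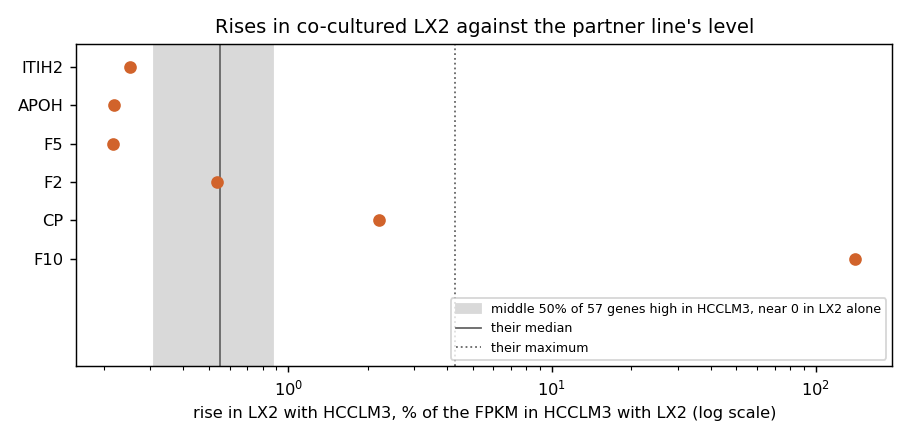
Rise of 6 plasma protein genes in LX2 with HCCLM3, in percent of the gene's FPKM in HCCLM3 with LX2 (log axis, points are ratios of group means over 3 libraries). The grey band, line and dotted line are the middle 50%, median and maximum of 57 genes that are high in HCCLM3 and near 0 in LX2 alone. ITIH2, APOH and F5 lie below the band, F2 in it, CP at 2.21% between band and maximum, and F10 at 141%.

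The change with co-culture was compared between lines in a fit over all 12 libraries, where 20.7% of 21959 genes differed, 9.39% with a higher and 11.3% with a lower change in HCCLM3. Of the 38 members, 26 were tested and 3 differed. CP rose more in HCCLM3 than in LX2, by 1.09 on the log2 scale (SE 0.25; edgeR adjusted p = 0.0104), although it rose in both. SAA1 was at 0 counts in HCCLM3 alone and went up there, while it lay lower in co-cultured LX2 (edgeR adjusted p = 0.00826 for the difference). ITIH2 changed less in HCCLM3 than in LX2, by 3.34 log2 units (SE 0.85; edgeR adjusted p = 0.0182), which rests on 7 counts in LX2 alone. On the additive scale of FPKM the order was the reverse, a mean rise of 13.2 FPKM in HCCLM3 and 0.112 FPKM in LX2. Nearest to the threshold without passing it were APOH (log2 difference -5.15; edgeR adjusted p = 0.0521), APOB (-5.24; 0.0552) and F2 (-4.60; 0.0597), each with a lower fitted change in HCCLM3. They rest on 14, 12 and 11 counts in LX2, none of them in LX2 alone, so that these fitted values depend on the prior count. DESeq2 and the replicate block called all 3 lower. F12 missed the threshold in the other direction (log2 difference 2.61, SE 0.99; edgeR adjusted p = 0.0906), as did APOE (1.39, SE 0.62; edgeR adjusted p = 0.152) and F10 (0.34, SE 0.69; edgeR adjusted p = 0.825). For AFP, AHSG, ORM1, ORM2 and SERPINC1, at 0 counts in all 6 libraries of a line, the fit gave no usable estimate.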

How the data were processed

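RNA sequencing was made of 12 libraries in 4 groups of 3, grouped by the cell line and treatment labels. The deposited tables, 1 per line, give each library's raw count and FPKM per gene, per the file headers. Bowtie 0.12.2, HISAT2 2.0, StringTie 1.3.0 and a mouse build, mm8, are named with no role per the submitters' processing notes, while the identifiers are human. Of 60612 identifiers 58394 were in GENCODE 29, 90.6% of them at the same chromosome and start or end, so the coordinates of the tables were taken as GRCh38. The labels' protocols speak of adipose RNA, which is neither line. FPKM entries of 0.0001 in the HCCLM3 table mark genes without a count and were read as 0. Genes absent from the LX2 table were read as 0 counts.

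Deposited counts were tested with edgeR 4.0.16 in R 4.3.3 (filterByExpr with a minimum count of 10 and total of 15, TMM, glmQLFTest, two-sided, Benjamini-Hochberg over all tested genes), within each line and for the difference of changes over all libraries. The procedure was tested on simulated data. Alternatives were library totals, DESeq2 1.42.0, no filter, limma 3.58.1 on log2(FPKM + 1) and log2(FPKM + 0.1), leaving out each library, a replicate block, and all libraries in 1 fit. Replicate libraries differed by more than counting noise. Folds against 0 use a floor of 3 counts over the group. Floors and the exact intervals of pooled counts cover counting error only (SciPy 1.17.1). The SE of an edgeR log2 change is its size divided by the square root of the F value of its test. Intervals of log2 changes use this SE with a normal approximation, which is narrow for so few libraries. The members and lists were chosen with earlier results of these data known. Named in full are members called, or at a mean of at least 1 FPKM in any group; of the other lists, up to 4 genes per line with the smallest p and the fibrinogen chains.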

Additional observations from a re-analysis of the deposited data

Results flagged for a closer look

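Each of 3 plasma protein genes was flagged because its change with co-culture differed between the lines by a test of that difference. For CP the log2 change in HCCLM3 minus that in LX2 was 1.09 (SE 0.25, edgeR adjusted p = 0.0104), with log2 changes of 2.50 and 1.37 in the lines. HPS3, which shares exon bases with CP on the other strand, stood above CP in LX2, and its part in the CP counts was not tested. For SAA1 the fitted value was 9.43 (SE 1.91; edgeR adjusted p = 0.00826). This value depends on the prior count, since HCCLM3 alone had 0 counts, and is no measure of size. The SAA1 counts behind it are 0 in HCCLM3 alone, 53 over HCCLM3 with LX2, 108 over LX2 alone and 25 over LX2 with HCCLM3. For ITIH2 the difference was -3.34 (SE 0.85; edgeR adjusted p = 0.0182), with log2 changes of 0.34 in HCCLM3 and 3.65 in LX2, the latter from 7 to 100 counts over the groups. The ITIH2 difference was not called without LX2 alone replicate 3 (log2 difference -2.77, edgeR adjusted p = 0.0565) or by limma on log2(FPKM + 0.1). The adjusted p ranged from 9.39e-05 to 0.41 over 18 alternatives. Beside it stand 57 genes high in HCCLM3 and near 0 in LX2 alone. In co-cultured LX2 they rose by a median of 0.558% of their HCCLM3 level, against 0.359% for ITIH2. The source of these reads and their part in the difference were not tested.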

How the results depend on the processing

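The number of members called in HCCLM3, 9, was 8 with all 12 libraries in 1 fit, 10 by DESeq2, 9 with library totals, 11 and 10 by limma on log2(FPKM + 0.1) and log2(FPKM + 1), and 7 with no filter. Leaving out single libraries gave 4 to 9, the 4 without HCCLM3 with LX2 replicate 3 and 5 without replicate 1. Over all genes, 1829 of 18045 rose in the main fit, 821 of 18783 without replicate 3 and 987 of 18780 without replicate 1. In LX2 the number of members called was 3, and 2 to 4 across all alternatives. For the difference between lines, 3 were called (2 with a higher change in HCCLM3 and 1 lower), 8 by DESeq2 (4 and 4), 10 by limma on log2(FPKM + 0.1) (10 and 0) and 12 by limma on log2(FPKM + 1) (11 and 1); leaving out libraries gave 2 to 6, with 2 without LX2 alone replicate 3 and 6 without LX2 with HCCLM3 replicate 2. Over all genes, the main fit called 2063 of 21959 higher and 2483 lower for the difference, and DESeq2 called 2903 and 2998 of 21906. Limma called 3491 higher and 1977 lower on log2(FPKM + 0.1), and 3787 and 2327 on log2(FPKM + 1). The cause of these shifts was not tested. With the replicate block, 7 members were called in HCCLM3 (ITIH2 and SAA1 were lost), 2 in LX2 (ITIH2 was lost) and 5 for the difference (1 higher and 4 lower; SAA1 was lost); same-numbered libraries deviated together little, with correlations from -0.041 to 0.045, so the numbers were not taken to pair them. CP kept its call in every alternative in both lines and in the difference.

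The sign of 9 values turned. The ITIH2 difference was 0.35 by limma on log2(FPKM + 1) (adjusted p = 0.0491), the only called value among them, where the pseudocount shrinks a change from near 0. APOH in HCCLM3 was 0.14 with library totals, 0.13 by limma on log2(FPKM + 0.1) and 0.12 by limma on log2(FPKM + 1). With the replicate block, A1BG in LX2 was -0.11 and SERPINC1 in LX2 was -0.095. Over single libraries left out, the log2 changes in HCCLM3 ranged from -0.10 to 0.22 for AFP, -0.46 to 0.077 for APOA1, -0.54 to 0.019 for APOB, -0.10 to 0.022 for APOH and -0.20 to 0.84 for SERPINA1, and in LX2 from -0.51 to 0.88 for A1BG, -0.15 to 0.43 for APOE and -1.07 to 0.59 for SERPINC1. Among the other lists, 63 genes were called in HCCLM3 and 48 in LX2, 64 and 48 with library totals and 47 and 38 with the replicate block. In HCCLM3 15 members and in LX2 27 members had too few counts to test.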

Other observations

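Some genes of the hepatocyte lists were higher in LX2 than any plasma protein gene of that line. CPS1 and ASS1, enzymes of the urea cycle, stood at 67.6 ± 0.627 and 231 ± 2.24 FPKM in LX2 alone and 198 ± 10.6 and 342 ± 5.01 FPKM with HCCLM3 (SD, n = 3; log2 fold changes 1.52 and 0.54; edgeR adjusted p = 2.96e-06 and 9.05e-06). PCK1, of gluconeogenesis, also rose (log2 fold change 2.71, edgeR adjusted p = 0.00118). PROS1, the anticoagulant protein S, fell from 21.7 ± 0.936 to 16.4 ± 0.539 FPKM (log2 fold change -0.43, edgeR adjusted p = 0.000837). FGL1 and SERPINF1 rose in LX2 as in HCCLM3 (log2 fold changes 1.25 and 0.86 in LX2).

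Signalling genes that rose in HCCLM3 were split in LX2. SOCS3 rose in LX2 too (log2 fold change 0.91, edgeR adjusted p = 7.71e-05), whereas STAT3 fell (-0.45, edgeR adjusted p = 0.000438) and CEBPD fell (-0.51, edgeR adjusted p = 0.00105). JAK2 fell in LX2 from 2.34 ± 0.0534 to 0.773 ± 0.053 FPKM (log2 fold change -1.62, edgeR adjusted p = 3.03e-05). The differences between lines were not tested for these genes.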
